A study of Mus musculus with 17 samples.

Results

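Collagen genes were taken as every gene on the array whose symbol is Col, a number, a and a second number. This gave 59 probes for 37 genes, of 16593 genes with a symbol on the array. Mouse collagen genes without a probe of that symbol here, among them Col6a3 and Col12a1, were not analysed. RNA of 17 samples was measured on Illumina BeadArrays, each condition on 1 array. In the lines written TO, Oct4 is controlled by tetracycline. They were MEF (embryonic fibroblasts), BMC (cells of the bone marrow) and NSC (stem cells of the nervous system), each at 0, 6, 12 and 24 h of treatment. Wild-type cells, written Ctrl, were MEF and NSC, each untreated (0 h) and treated for 24 h (for MEF the title of the treated array gives 24 and another label 14), and embryonic stem cells (ESC) were measured once. The labels name no inducing compound, strain, animal or culture, mark the TO arrays at 0 h as treated too, and give no wild-type BMC. Levels are log2 values after background correction and quantile normalization, and a probe with a detection p of 0.01 or more against the negative control beads is called below background. Levels of different probes are not comparable, so each probe is set only against itself.

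Collagens are triple-helical proteins of the extracellular matrix. Fibrillar collagens build the fibrils of skin, bone and tendon, type IV collagens form the network of basement membranes, FACIT collagens sit on fibril surfaces, and type VI collagen makes beaded filaments around cells. Multiplexins lie in or near basement membranes, type VII forms the anchoring fibrils that tie them to the dermis, and transmembrane collagens span the cell membrane. Fibroblasts are the main makers of fibrillar collagen, and loss of the fibroblast programme is an early step of reprogramming to pluripotency, for which Oct4 is a core factor.

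In the RefSeq promoter table (build GRCm38.p6) 30 of the 37 genes had an entry. The 250 bases before the start site were searched on both strands for CCAAT, for GGGCGG (the GC box), for TATAAA and for ATGCAAAT, the octamer known as a binding site of Oct4 and its relatives. CCAAT was present for 12 of the 30 genes and in 33.8% of all 32851 windows. The GC box was present for 18, against 32.7% of all windows, TATAAA for 5, against 12.4%, and the octamer for 2 (Col3a1 and Col25a1), against 1.6%. A gene counted if any of its windows held the motif, while the percentages count single windows. Col18a1, Col6a2 and Col9a1 had 2 windows each. Printed below are the window of Col7a1, the gene with the lowest fitted trend in TO MEF, the window of Col3a1, which holds the octamer, and the bases between the start sites of Col4a1 and Col4a2. These genes lie head to head on chromosome 8 with start sites 21 bases apart, and their levels moved together in TO MEF as described further on. Capitals mark matches to the searched motifs, and all are printed on the plus strand, from 5′ to 3′.
Col7a1 promoter, chr9:108953336-108953585, plus strand: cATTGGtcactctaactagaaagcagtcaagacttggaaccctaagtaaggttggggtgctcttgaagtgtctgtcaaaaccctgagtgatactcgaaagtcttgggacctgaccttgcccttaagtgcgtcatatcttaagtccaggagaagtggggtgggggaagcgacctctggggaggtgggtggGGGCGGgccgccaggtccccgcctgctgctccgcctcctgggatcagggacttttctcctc
Col3a1 promoter, chr1:45311288-45311537, plus strand: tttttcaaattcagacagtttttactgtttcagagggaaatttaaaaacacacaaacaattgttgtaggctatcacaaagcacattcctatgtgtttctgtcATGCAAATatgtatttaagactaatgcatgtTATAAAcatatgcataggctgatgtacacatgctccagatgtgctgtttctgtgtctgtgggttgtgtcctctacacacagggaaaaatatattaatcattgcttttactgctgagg
Col4a1-Col4a2 start sites, chr8:11312805-11312826, plus strand: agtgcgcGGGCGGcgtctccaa

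The Col7a1 window holds a CCAAT on the minus strand at its upstream end and a GC box nearer the start site. The Col3a1 window holds the octamer and a TATAAA, both on the plus strand. The stretch from the Col4a2 to the Col4a1 start site holds a GC box on the plus strand. Col4a2 runs on the plus strand from 11312805 and Col4a1 on the minus strand from 11312826. The stretch therefore lies after both start sites, inside both genes, and outside the windows counted above. A match describes letters only and no binding was measured.

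Each array detected between 10231 and 11082 of its 25697 probes. Pou5f1, which encodes Oct4, read 8.44, 14.04, 14.35 and 14.50 at 0, 6, 12 and 24 h in TO MEF, against 5.02 and 4.82 at 0 and 24 h in Ctrl MEF, so it was above the wild-type level before the first timed array. It read 5.08, 10.28, 11.23 and 10.26 in TO NSC and 5.06, 11.12, 11.11 and 10.88 in TO BMC. The 6 MEF arrays detected 10 of 10 fibroblast markers each, the NSC arrays 6 or 7 of 7 neural stem markers, and the BMC arrays 5 to 7 of 7 blood and myeloid markers. BMC arrays also detected 8 or 9 of the 10 fibroblast markers, with a summed log2 level of 72.25 to 75.75, against 107 to 111.5 on MEF arrays. NSC arrays detected 3 to 5 of them, with a summed level of 61.25 to 72.57, which overlaps that of the BMC arrays. Of the blood markers in TO BMC, Mpo read 5.24 at 24 h, below background, against 11.72 at 0 h. TO MEF arrays were dimmer before normalization (mean intensity 382 to 437) than the other arrays (548 to 672). In these bulk samples fewer cells of a type and less RNA per cell cannot be told apart.

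At least 1 probe of 27 of the 37 collagen genes was detected on at least 1 array, and 36 of the 59 probes passed this filter. All classes were represented among them: 10 of 11 fibrillar genes, 4 of 6 basement membrane genes, 3 of 6 FACIT genes, 2 of 3 beaded filament genes, both multiplexins, 3 of 4 transmembrane genes, 1 of 2 short-chain genes, the anchoring fibril gene Col7a1 and, of the unclassed genes, Col26a1 but not Col28a1. Below background on all 17 arrays were Col11a2, Col13a1, Col14a1, Col19a1, Col28a1, Col4a3, Col4a4, Col6a6, Col8a2 and Col9a3. Col4a3 and Col4a4 encode the kidney and lung chains of type IV collagen, and Col9a3 a cartilage chain. MEF arrays detected 17 to 19 collagen genes each, NSC arrays 7 to 12, BMC arrays 8 to 10 and the ESC array 8. The number of all genes detected per array spanned 7223 to 7776 and does not show that order: the arrays with the fewest and with the most were both MEF arrays.

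**Figure D1:**
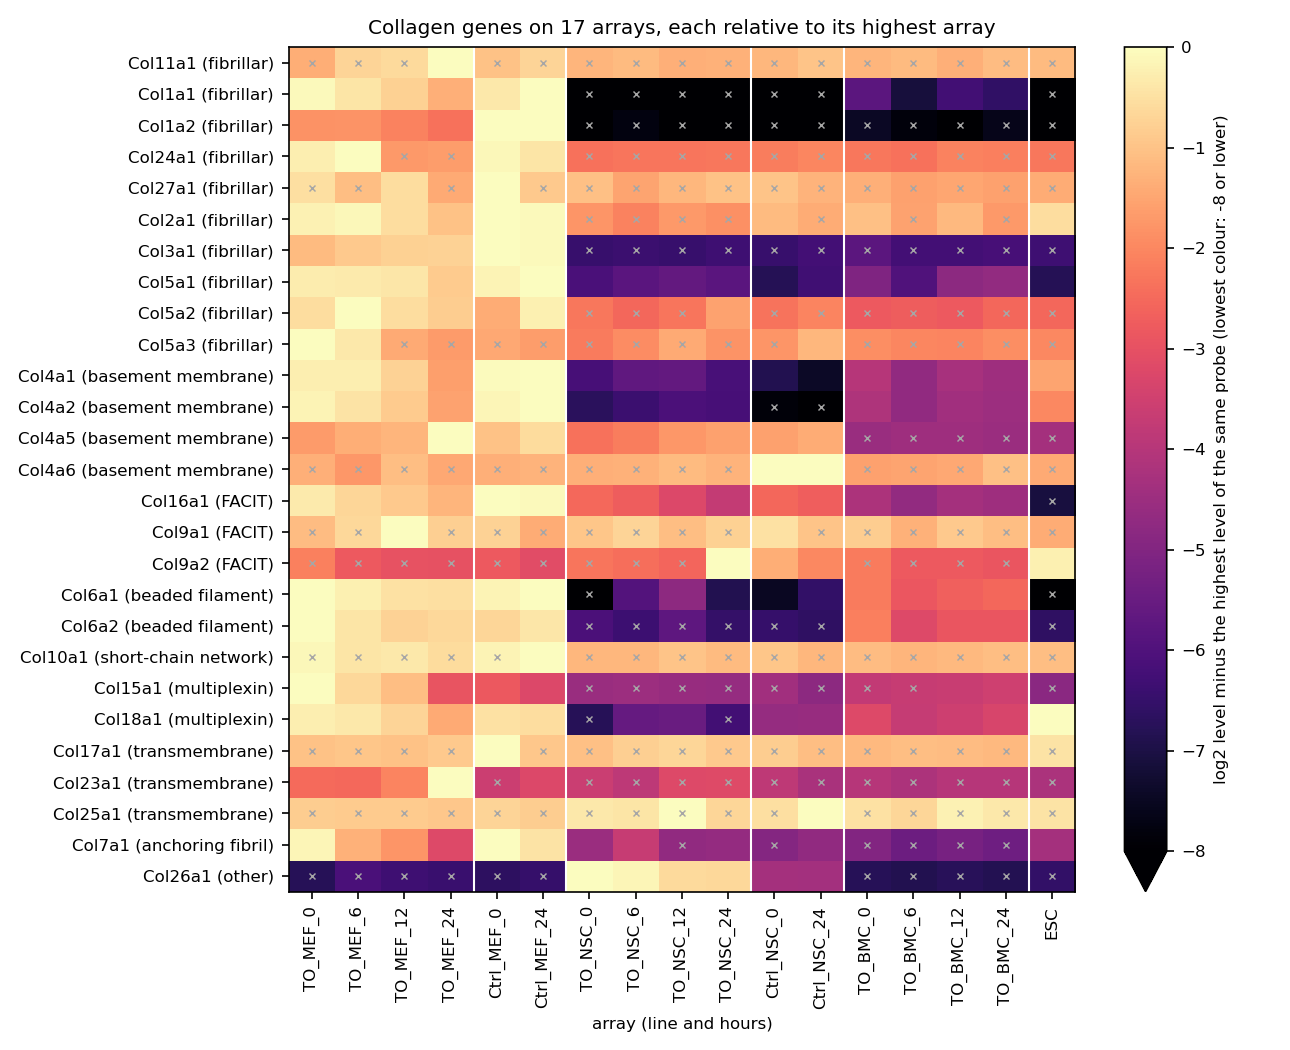
Log2 level of 27 collagen genes (rows, by class) on 17 arrays (columns, by line and hours), each as the difference from the probe's own highest array, with × where the probe was below background. The 6 MEF columns on the left hold most of the light cells, while Col26a1 is light on TO NSC arrays and Col18a1 on the ESC array.

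The first comparison asked how collagen levels differ between MEF and NSC on the wild-type arrays and the TO arrays at 0 h. It used TO at 0 h, Ctrl at 0 h and Ctrl at 24 h of each cell type (n = 3 arrays each, of 2 lines), and the spread between these arrays is its error. The TO arrays at 0 h are labelled as treated, and that of MEF already held Pou5f1 above wild type, so it cannot be called uninduced. Without that array the count of probes given next was 24, 23 higher and 1 lower. The equal counts do not mean the same probes. Col26a1, the 1 lower in MEF in the full fit, did not pass then (limma adjusted p = 0.0807). With all arrays, 16 of 27 genes were higher in MEF, 1 was higher in NSC and 10 did not pass (limma, Benjamini-Hochberg adjusted p under 0.05 over 15543 probes). By probe, 24 of 36 passed, 23 higher and 1 lower in MEF, and 39.2% of all probes passed, 18.2% higher and 21% lower. The median MEF minus NSC difference of the 27 genes was 1.5 log2 units, and that of all probes was -0.06. Since many of these probes were kept because MEF arrays detected them, these counts describe the genes and are no evidence about collagens as a group. With the 0 h arrays alone 19 probes passed, all higher in MEF, and Col5a2, Col10a1, Col15a1 and Col26a1 did not (limma adjusted p = 0.0563, 0.0544, 0.0815 and 0.0848).

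Fibrillar genes gave 7 of 10 higher in MEF. Col1a1, the main chain of type I collagen, read 13.65, 13.29, 12.94 and 12.39 at 0, 6, 12 and 24 h in TO MEF, and 13.35 and 13.72 at 0 and 24 h in Ctrl MEF. It was below background on all 6 NSC arrays and on the ESC array, and read 7.94, 6.61, 7.44 and 7.13 in TO BMC. On the arrays of this comparison its level was at least 267-fold higher in MEF than in NSC (13.57 ± 0.20 against 4.60 ± 0.05, SD, n = 3 arrays each; limma adjusted p = 7.47e-07). Col1a2, the second type I chain, read 10.88, 10.89, 10.62 and 10.35 in TO MEF, against 12.70 and 12.70 in Ctrl MEF, and was below background on all NSC, BMC and ESC arrays. It was at least 95.4-fold higher in MEF than in NSC (12.09 ± 1.05 against 4.54 ± 0.10; limma adjusted p = 3.01e-05). In the BMC arrays type I collagen was thus read through Col1a1 alone.

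Col3a1, the type III chain of elastic tissues, read 9.71, 9.97, 10.08 and 10.13 in TO MEF, against 10.85 and 10.76 in Ctrl MEF, and was below background elsewhere. It was at least 30.4-fold higher in MEF than in NSC (limma adjusted p = 1.21e-05). Col5a1, whose type V chain helps start fibrils, was one of 2 collagen genes detected on all 17 arrays, with Col4a1. It read 13.70, 13.66, 13.60 and 13.15 in TO MEF, against 13.83 and 14.00 in Ctrl MEF, 7.89, 8.20, 8.38 and 8.19 in TO NSC, against 7.19 and 7.70 in Ctrl NSC, 8.95, 8.02, 9.19 and 9.34 in TO BMC and 7.21 in ESC. All MEF arrays lay above all others, and the MEF minus NSC difference was 6.25 ± 0.22 (SE; limma adjusted p = 2.12e-06).

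Col5a2, Col24a1 and Col2a1 were detected on all 3 MEF arrays of the comparison at low levels, with MEF means of 6.46, 6.49 and 6.63. Their MEF minus NSC differences were 1.5 ± 0.30, 1.92 ± 0.17 and 1.34 ± 0.19 (SE), with limma adjusted p of 0.00675, 0.000131 and 0.00164. Col2a1 is the chain of cartilage collagen, and it was also detected on the ESC array (6.18). Col5a3, Col11a1 and Col27a1 did not pass.

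Basement membrane genes gave 2 of 4 higher in MEF. Col4a1 and Col4a2, the chains of the ubiquitous type IV network, read 12.87 and 12.50 in TO MEF at 0 h, 13.11 and 12.55 in Ctrl MEF at 0 h, and 13.15 and 12.68 in Ctrl MEF at 24 h. Col4a1 read 6.99, 7.49, 7.55 and 7.0 in TO NSC, against 6.28 and 5.73 in Ctrl NSC. Col4a2 read 5.98, 6.29, 6.61 and 6.50 in TO NSC and was below background on both Ctrl NSC arrays. Both genes were therefore higher on each TO NSC array than on either Ctrl NSC array. The MEF minus NSC difference was 6.71 ± 0.31 for Col4a1 and 7.42 ± 0.34 for Col4a2 (SE; limma adjusted p = 7.21e-06 and 7.17e-06).

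In TO BMC, Col4a1 read 9.16, 8.46, 8.89 and 8.71 and Col4a2 8.55, 7.97, 8.30 and 8.21. The ESC array read 11.63 and 10.70, between the MEF and the BMC arrays except that TO MEF at 24 h read 11.54 for Col4a1. Col4a5, a chain of specialised basement membranes that lies head to head with Col4a6 on the X chromosome, was detected on all MEF and NSC arrays, and its levels in them overlapped. It read 7.31 in TO MEF at 0 h, against 7.97 and 8.39 in Ctrl MEF, 6.62 in TO NSC at 0 h, against 7.41 and 7.60 in Ctrl NSC, and was below background in BMC and ESC. Col4a6 was detected in Ctrl NSC only, at 6.05 and 6.07.

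Both beaded filament genes, Col6a1 and Col6a2, were higher in MEF. Col6a2 read 11.08, 10.66, 10.36 and 10.43 in TO MEF, against 10.41 and 10.69 in Ctrl MEF, 8.94, 7.89, 8.19 and 8.20 in TO BMC, and was below background on all NSC arrays and in ESC. It was at least 37.0-fold higher in MEF than in NSC (limma adjusted p = 2.95e-06). Col6a1 read 13.50, 13.25, 13.03 and 12.98 in TO MEF, against 13.32 and 13.47 in Ctrl MEF, and 11.30, 10.63, 10.84 and 10.95 in TO BMC. The difference of Col6a1 was 7.31 ± 0.37 (SE; limma adjusted p = 1.14e-05). Every BMC array read lower for Col6a1 than every MEF array and higher than every NSC array.

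Of the other classes, Col16a1, a FACIT, read 11.99, 11.65, 11.43 and 11.11 in TO MEF, against 12.33 and 12.26 in Ctrl MEF. It read 9.81, 9.60, 9.11 and 8.58 in TO NSC, against 9.78 and 9.64 in Ctrl NSC, and 8.15, 7.66, 7.99 and 7.87 in TO BMC. It was the FACIT gene that passed, at a difference of 2.45 ± 0.16 (SE; limma adjusted p = 3.27e-05). Col9a1, a FACIT of cartilage, was above background on 2 of 17 arrays, TO MEF at 12 h (6.05) and Ctrl NSC at 0 h (5.57). Col18a1, whose C-terminal fragment is endostatin, read 11.34 in ESC, the highest of its 17 arrays, and 11.07 at most on the MEF arrays. Its MEF minus NSC difference was 4.89 ± 0.57 (SE; limma adjusted p = 0.000562). Col7a1 was also higher in MEF (10.10 ± 0.24 against 5.58 ± 0.23, SD, n = 3 arrays each; limma adjusted p = 5.51e-06). Col15a1 passed with an adjusted p of 0.0378 (limma), but its 3 MEF arrays read 9.26, 6.44 and 6.01, so the TO line alone was high. It did not pass without TO NSC at 0 h (0.0731), Ctrl MEF at 0 h (0.0505), Ctrl NSC at 0 h (0.0841) or Ctrl NSC at 24 h (0.106). Col10a1, a hypertrophic cartilage collagen, passed although only 1 of its 3 MEF arrays was above background.

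Col26a1, which encodes a small protein with collagen repeats, was the gene higher in NSC. It read 11.23, 11.08, 10.61 and 10.59 in TO NSC, against 6.91 and 6.87 in Ctrl NSC, and was below background on the other 11 arrays. At 0 h its level was 20.0-fold higher in TO NSC than in Ctrl NSC, so the lines differed before the timed treatment. The MEF minus NSC difference was -3.74 ± 1.1 (SE; limma adjusted p = 0.0326), with an NSC level at least 7.07-fold higher. It did not pass without TO MEF at 0 h (0.0807), Ctrl MEF at 0 h (0.0855) or Ctrl MEF at 24 h (0.0802).

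**Figure D2:**
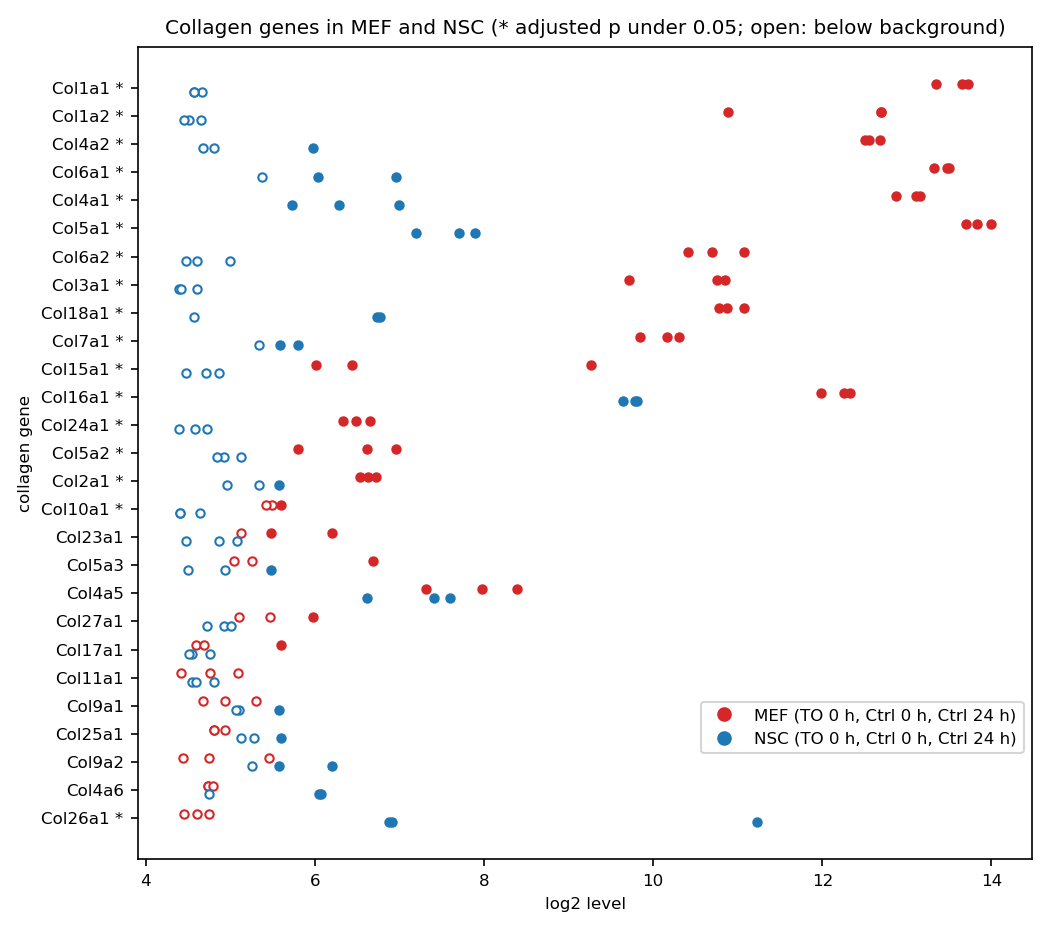
Log2 level of 27 collagen genes (rows, ordered by the MEF minus NSC difference) on 3 MEF arrays (red) and 3 NSC arrays (blue), with open points below background and a star at genes that passed. For Col1a1 the MEF points lie at 13.35 to 13.72 and the NSC points at 4.57 to 4.66, whereas the Col4a5 points overlap.

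The lines also differed from their wild type at 0 h. Between TO MEF and Ctrl MEF at 0 h, 6 of 36 collagen probes differed at least 2-fold, against 7.93% of all probes (3.27% higher and 4.66% lower). Col15a1 (7.04-fold), Col5a3 (at least 2.32-fold) and Col23a1 (at least 1.66-fold) were higher in TO MEF. Col1a2 (3.53-fold), Col3a1 (2.21-fold, by its brighter probe) and Col17a1 were lower, the last with no bound above 1. The dimmer Col3a1 probe went the other way, with 6.52 in TO MEF and 6.24 in Ctrl MEF at 0 h. Between TO NSC and Ctrl NSC at 0 h, 4 of 36 did so, against 9.17% of all probes (4.3% higher and 4.87% lower). Col26a1 and Col4a2 were higher in TO NSC and Col18a1 and Col4a6 lower. Each of these comparisons sets 1 array against 1 array and has no replicate check.

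The second comparison asked how collagen levels changed from 0 h of the same line after treatment. At 24 h in TO MEF, 13 of 36 probes differed at least 2-fold from 0 h, of 11 genes, 10 probes lower and 3 higher. Of all probes 11.4% did so, 5.65% lower and 5.76% higher. At 6 h 1 probe had done so (2.43% of all probes) and at 12 h 5 probes (5.89%). In wild-type MEF 1 of 36 probes, of Col5a2, differed 2-fold between 24 and 0 h (0.238% of all probes). The median change of the 27 genes in TO MEF was -0.04, -0.26 and -0.55 log2 units at 6, 12 and 24 h, and that of all probes 0, 0.01 and 0. Many of these collagen probes were kept because MEF arrays detected them, and for those a fall could be read only there. The counts and medians therefore describe the genes and are no evidence about collagens as a group.

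A linear trend over 0, 6, 12 and 24 h, given as the fitted change over 24 h with its SE, was tested in the 16 somatic arrays together. Its error is the scatter of the times around the line and of the wild-type arrays around their mean, so it does not measure variation between cultures. In TO MEF, 13 of 36 probes passed (limma, adjusted p under 0.05 over all 15543 probes), of 11 genes, 3 higher and 8 lower, and 10.9% of all probes passed, 6.08% higher and 4.86% lower. The median fitted change of the 27 genes was -0.58, and that of all probes -0.01. As with the 2-fold counts, many of these probes were kept through MEF arrays. Set against all probes, the count and median are thus no evidence about collagens as a group. Of the 3 higher genes, Col11a1 was kept through TO MEF at 24 h alone. Without the TO MEF array at 24 h 1 probe passed, and without that at 0 h 6 did. With the wild-type trend subtracted 1 of 36 probes passed (1.12% of all probes), that of Col15a1. A step between 0 h and the mean of later times was passed by 0 collagen probes in each cell type by limma, where 8, 3 and 3 had an unadjusted p under 0.05 in MEF, NSC and BMC, and 0.199%, 0.206% and 0.0322% of all probes passed. Without TO MEF at 6 h 4 probes passed that step in MEF, and without TO NSC at 24 h 2 passed it in NSC.

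**Figure D3:**
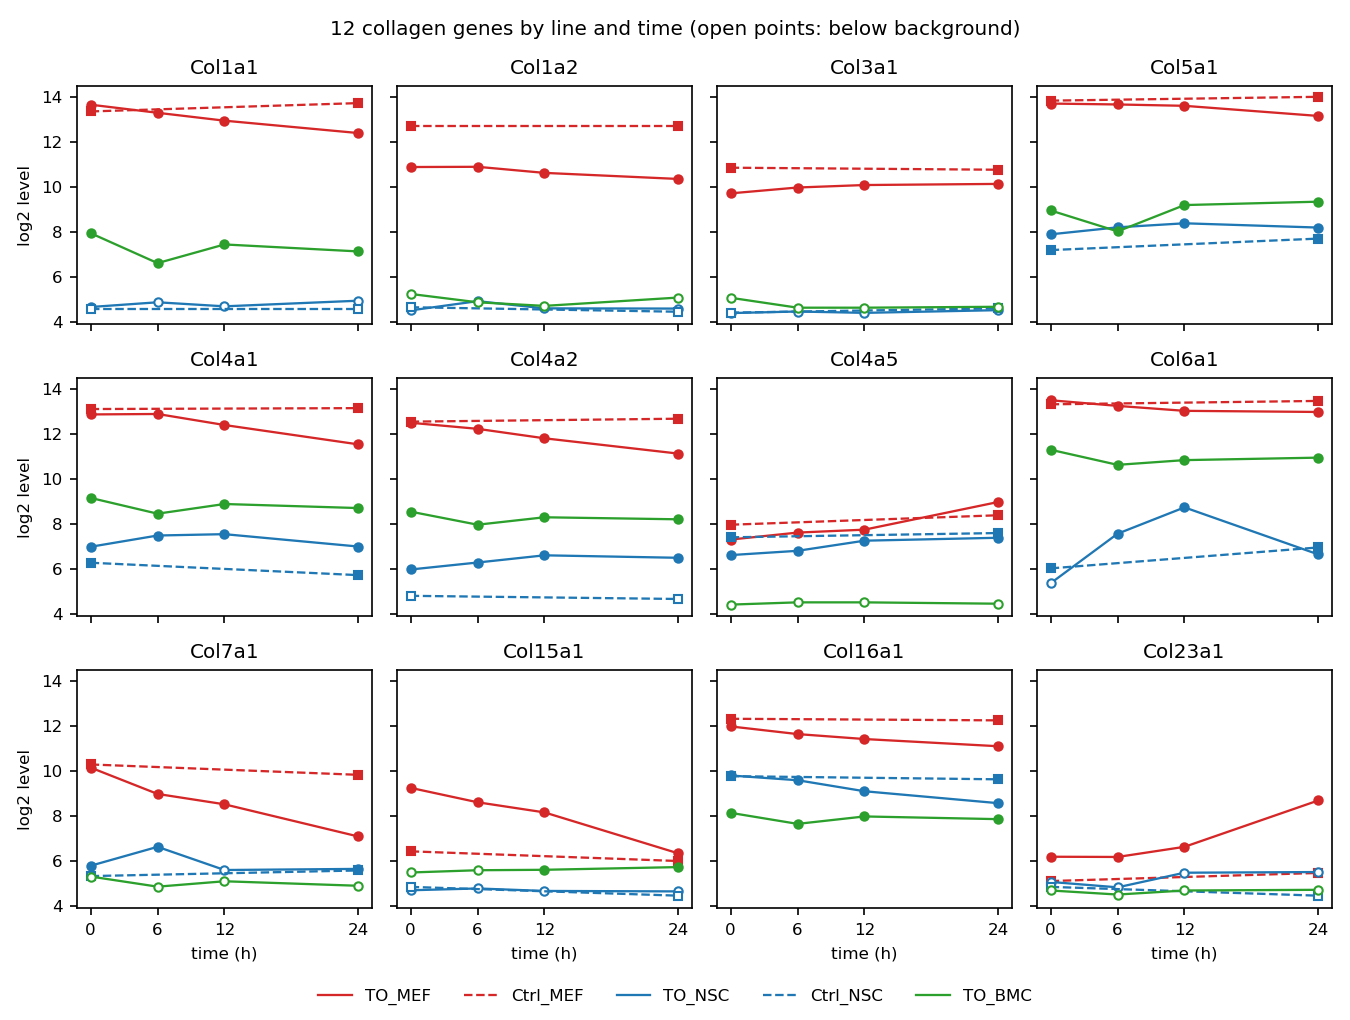
Log2 level of 12 collagen genes against time in h for TO MEF, Ctrl MEF, TO NSC, Ctrl NSC and TO BMC, with 1 array per point and open points below background. In TO MEF Col7a1 and Col15a1 end at 7.10 and 6.35 and Col23a1 ends at 8.70, while Ctrl MEF reads 10.30 and 9.84 for Col7a1.

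Col7a1 had the lowest trend. It read 10.16, 8.99, 8.53 and 7.10 at 0, 6, 12 and 24 h in TO MEF, against 10.30 and 9.84 at 0 and 24 h in Ctrl MEF. Each later TO MEF array was lower than the one before and all 3 were below both Ctrl MEF arrays. The level at 24 h was 8.35-fold lower than at 0 h, and the trend was -2.94 ± 0.40 (limma adjusted p = 0.000664). A dimmer probe of the gene gave -1.03 ± 0.26 (limma adjusted p = 0.0230) and was above background at 0 h in TO MEF and in Ctrl MEF only. Without the array at 24 h the trend of the brighter probe was -3.26 and no longer passed (adjusted p = 0.0784), and with the wild-type trend subtracted it was -2.47 (adjusted p = 0.0841).

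Col15a1, a multiplexin, read 9.26, 8.62, 8.17 and 6.35 in TO MEF, against 6.44 and 6.01 in Ctrl MEF. The first 3 TO arrays lay above the wild-type arrays and the last was between them. The trend was -2.89 ± 0.26 (limma adjusted p = 6.35e-05), and it passed with each array left out in turn, the highest adjusted p being 0.0447. It was also the gene that passed after subtraction of the wild-type trend, at -2.46 ± 0.33 (limma adjusted p = 0.0103). The other multiplexin, Col18a1, read 11.07, 10.99, 10.63 and 9.91 in TO MEF, against 10.87 and 10.78 in Ctrl MEF, with a trend of -1.22 ± 0.46 that did not pass (adjusted p = 0.115). It passed with an offset of 50 (0.0165), without background correction (0.00312), without TO NSC at 0 h (0.01) and without TO NSC at 24 h (0.0217).

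Col4a1 and Col4a2 moved in parallel. Col4a1 read 12.87, 12.89, 12.40 and 11.54 in TO MEF, against 13.11 and 13.15 in Ctrl MEF, and fell by 1.42 ± 0.37 over 24 h (limma adjusted p = 0.0261). Col4a2 read 12.50, 12.23, 11.81 and 11.13 in TO MEF, against 12.55 and 12.68 in Ctrl MEF, and fell by 1.39 ± 0.26 (limma adjusted p = 0.00477). On both genes the TO MEF array at 24 h was lower than every other MEF array. Without that array the trends were -0.93 and -1.37 and did not pass (adjusted p = 0.69 and 0.284). The Col4a1 trend also failed without TO MEF at 0 h or at 6 h, and on the authors' log2 values (adjusted p = 0.0831).

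Col4a5 went the other way from Col4a1 and Col4a2. It read 7.31, 7.62, 7.75 and 8.98 in TO MEF, against 7.97 and 8.39 in Ctrl MEF, and rose by 1.67 ± 0.26 (limma adjusted p = 0.00144). The TO array at 0 h was below both wild-type arrays and that at 24 h above both. Without TO MEF at 24 h the trend was 0.89 (adjusted p = 0.472).

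Among fibrillar genes, 3 of 10 fell and 1 rose by the trend in TO MEF. Col5a3, a minor type V chain, read 6.69 and 6.33 at 0 and 6 h and was below background at 12 and 24 h, as on both Ctrl MEF arrays. It was at least 2.32-fold lower at 24 h than at 0 h, with a trend of -1.77 ± 0.36 (limma adjusted p = 0.00737). By its brighter probe Col24a1, a fibrillar collagen of developing bone, read 6.48 and 6.75 at 0 and 6 h and was below background at 12 and 24 h in TO MEF, against 6.65 and 6.33 in Ctrl MEF. A dimmer probe was still above background at 12 h (5.74) and below it at 24 h. By the brighter probe the level was at least 2.01-fold lower at 24 h than at 0 h. The brighter and the dimmer probe gave trends of -1.67 ± 0.41 and -1.42 ± 0.23 (limma adjusted p = 0.0208 and 0.0018).

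Col2a1 read 6.53, 6.61, 6.18 and 5.71 in TO MEF, against 6.72 and 6.63 in Ctrl MEF, and its trend of -0.91 ± 0.27 was close to the threshold (limma adjusted p = 0.0469). It failed without 12 of the 16 arrays in turn, and under 6 of 8 other settings. A dimmer Col2a1 probe read 6.41, 6.37, 5.79 and 5.52 in TO MEF, against 6 and 5.89 in Ctrl MEF, and did not pass. Col11a1, a chain of cartilage fibrils, was above background on 1 of 17 arrays, TO MEF at 24 h at 5.79. Its probe entered the test through that array alone, so its rise of 1.26 ± 0.24 (limma adjusted p = 0.00489) is no independent support. That rise amounted to a bound of 1.07-fold against the detection floor at 0 h. The other Col11a1 probes were below background on all 17 arrays. Without TO MEF at 0 h or 24 h, Col5a3, Col24a1 (brighter probe), Col2a1 and Col11a1 did not pass.

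The fibrillar genes Col1a1, Col1a2, Col5a1 and Col3a1 did not pass the trend in TO MEF. Col1a1 read lower at each later time in TO MEF and 2.39-fold lower at 24 h than at 0 h, with a trend of -1.25 ± 0.40 (limma adjusted p = 0.0677). It passed with an offset of 50, without background correction, with scaling to 1 median and with robust moderation of the variances, where adjusted p was 0.0259, 0.00616, 0.0411 and 0.0454. It also passed without TO BMC at 0 h (0.0243) or at 6 h (0.00485). The trend of Col1a2 was -0.58 ± 0.26 (adjusted p = 0.194), and it passed with an offset of 50 (0.0323) and without background correction (0.0195). That of Col5a1 was -0.56 ± 0.41 (adjusted p = 0.457) and that of Col3a1 0.39 ± 0.22 (adjusted p = 0.296). Col3a1 was thus the gene among these with a positive estimate in TO MEF, and its second probe gave 0.44 ± 0.38.

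Col16a1 fell by 0.85 ± 0.23 in TO MEF (limma adjusted p = 0.0308), with lower levels at each later time, and failed without TO MEF at 0 h or 24 h. The beaded filament genes Col6a1 and Col6a2 had trends of -0.50 ± 0.97 and -0.60 ± 0.41, which did not pass. Col23a1, a transmembrane collagen that is shed from the cell surface, rose most. It read 6.2, 6.19, 6.64 and 8.70 in TO MEF, and in Ctrl MEF was below background at 0 h and read 5.48 at 24 h. The rise lay between 12 and 24 h, the level at 24 h was 5.64-fold higher than at 0 h, and the trend was 2.62 ± 0.39 (limma adjusted p = 0.00111). Without the array at 24 h it was 0.87 (adjusted p = 0.60), and with the wild-type trend subtracted 2.27 (adjusted p = 0.0993).

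**Figure D4:**
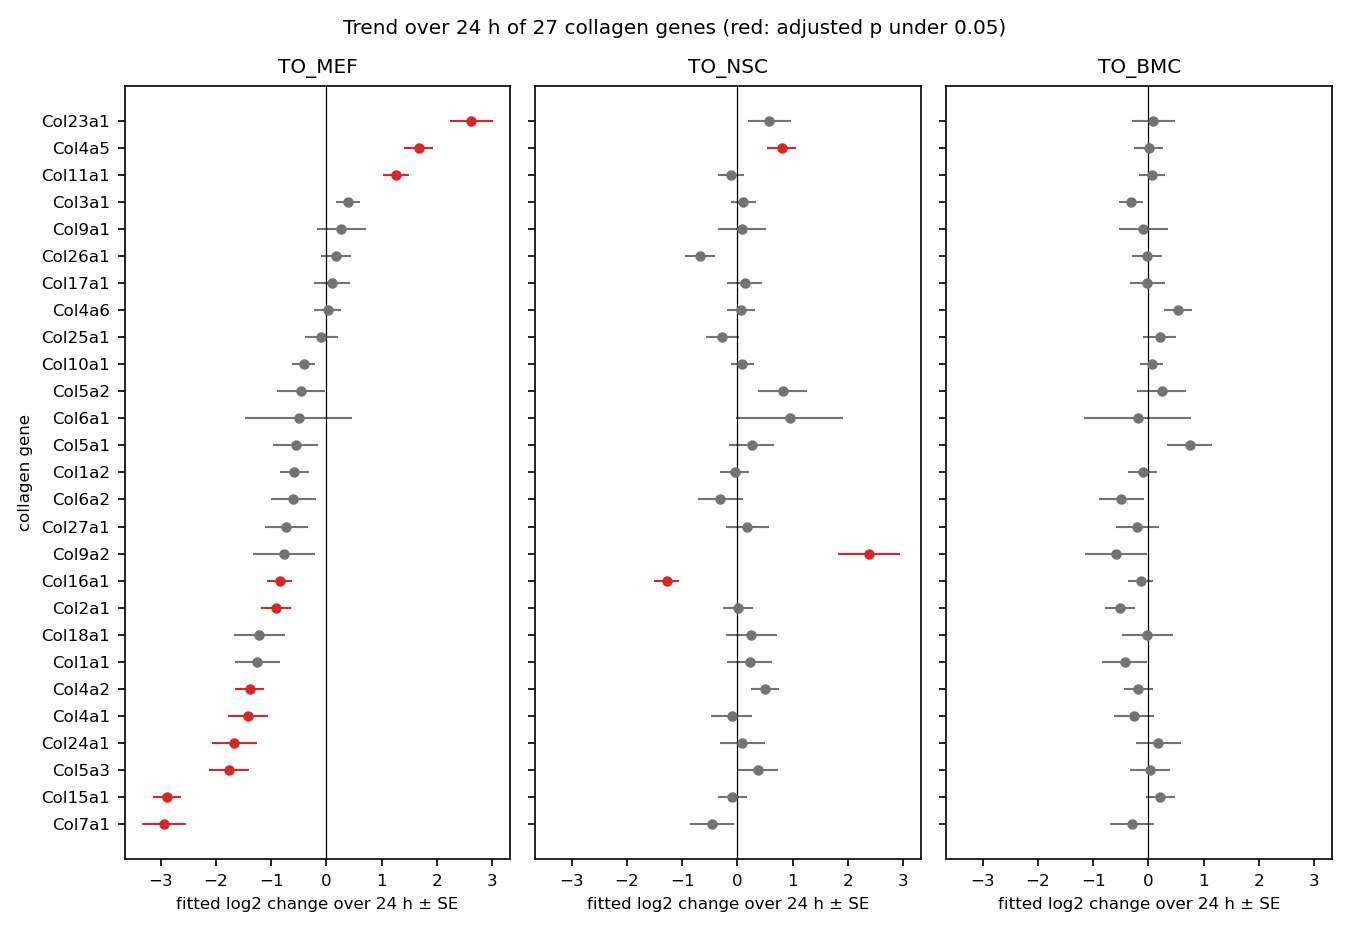
Fitted log2 change over 24 h with its SE for 27 collagen genes in TO MEF, TO NSC and TO BMC, red where the adjusted p was under 0.05. In TO MEF the estimates run from -2.94 (Col7a1) to 2.62 (Col23a1), with 8 genes red to the left of 0 and 3 to the right, while no gene is red in TO BMC.

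In TO NSC, 3 of 36 probes passed the trend, against 23.2% of all probes (11.9% higher and 11.4% lower), with 2 collagen probes higher and 1 lower. Col16a1 read 9.81, 9.60, 9.11 and 8.58 and fell by 1.28 ± 0.23 (limma adjusted p = 0.00188), ending below both Ctrl NSC arrays. Col4a5 read 6.62, 6.81, 7.26 and 7.39 and rose by 0.80 ± 0.26 (limma adjusted p = 0.0403), and all 4 arrays stayed below both Ctrl NSC arrays. That call failed without any of 8 arrays in turn. Col9a2, a cartilage FACIT chain, was below background at 0, 6 and 12 h and read 7.56 at 24 h in TO NSC, against 6.2 and 5.58 in Ctrl NSC and 7.34 in ESC. It was at least 4.03-fold higher at 24 h than at 0 h (trend 2.39 ± 0.56, limma adjusted p = 0.00906), and without that array the estimate was -0.57. With the wild-type trend subtracted 0 of 36 collagen probes passed in NSC (8.24% of all probes), where 2 had an unadjusted p under 0.05.

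Col6a1 had a peak in TO NSC that a line does not describe. It was below background at 0 h and read 7.57, 8.74 and 6.65 at 6, 12 and 24 h, against 6.03 and 6.96 at 0 and 24 h in Ctrl NSC. The level at 12 h was at least 9.12-fold above that at 0 h, and at 24 h it was between the wild-type arrays. A second Col6a1 probe gave the same order of arrays, below background at 0 h and 6.85, 7.91 and 6.08 later, against 5.71 and 6.55 in Ctrl NSC. The dimmest of the 3 probes was below background on all NSC arrays. The step test gave 2.29 ± 0.58 for the first probe (limma adjusted p = 0.246), and its neighbour on chromosome 10, Col6a2, stayed below background on all 6 NSC arrays.

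**Figure D5:**
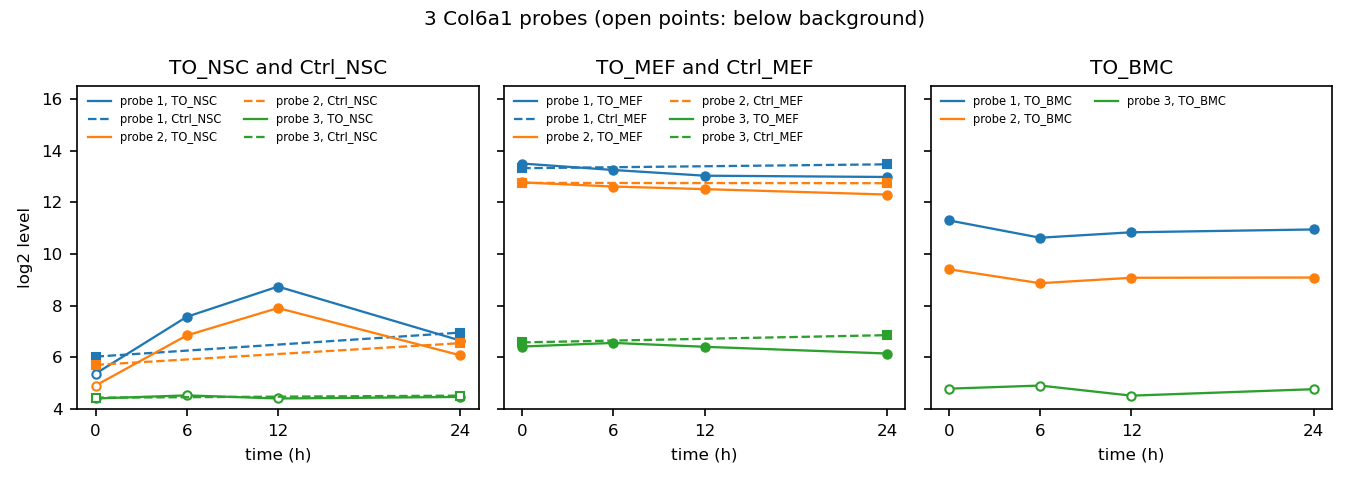
Log2 level of 3 Col6a1 probes against time in h in NSC, MEF and BMC, with TO lines solid, Ctrl lines dashed and open points below background. In TO NSC probes 1 and 2 are highest at 12 h (8.74 and 7.91), while probe 1 spans 12.98 to 13.50 in TO MEF and 10.63 to 11.30 in TO BMC.

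Col18a1 was below background in TO NSC at 0 and 24 h and read 5.76 and 5.87 at 6 and 12 h, against 6.73 and 6.77 in Ctrl NSC. The 2-fold counts in TO NSC were 3, 3 and 4 of 36 probes at 6, 12 and 24 h, and 3.26%, 7.77% and 16.6% of all probes. In Ctrl NSC 0 of 36 differed 2-fold between 24 and 0 h (1.56% of all probes). Col26a1 read 0.64 log2 units lower at 24 h than at 0 h in TO NSC, a trend of -0.68 ± 0.27 that did not pass (adjusted p = 0.0933).

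In TO BMC 0 of 36 collagen probes passed the trend by limma, 0 had an unadjusted p under 0.05, and 0.785% of all probes passed. At 6 h Col1a1 and Col6a2 were 2.52-fold and 2.07-fold lower than at 0 h, 2 of 36 probes against 0.701% of all, and at 12 and 24 h no collagen probe differed 2-fold (0.907% and 2.03% of all probes). Both counts at 6 h rest on a single array against a single array.

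The trend differed between MEF and NSC for 8 of 36 probes (11% of all probes), between MEF and BMC for 5 (3.44%) and between NSC and BMC for 2 (10.6%). The counts with MEF carry the same limit, as many of the probes were kept through MEF arrays. Without TO MEF at 24 h these counts for MEF against NSC and against BMC were 1 and 0. The MEF against NSC count was 4 without TO MEF at 0 h and 5 without TO NSC at 0 h, and that against BMC was 1 without TO BMC at 0 h and 0 without TO BMC at 24 h. The NSC against BMC count was 1 or 0 without any of 10 arrays. The trends of Col15a1 and Col7a1 were lower, and that of Col23a1 higher, in MEF than in both other cell types. For Col15a1 the MEF trend differed from that of NSC by -2.81 ± 0.36 (limma adjusted p = 0.00098) and from that of BMC by -3.12 ± 0.36 (limma adjusted p = 0.000752). The gene was below background on all NSC arrays and near it on the BMC arrays, where no fall could have been read.

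Other genes of collagen making and handling were counted by 6 lists, in the same trend test, which in TO MEF 6.08% of all probes passed as higher and 4.86% as lower. Of 18 measured genes of procollagen hydroxylation, glycosylation and folding, 0 rose and 1 fell in TO MEF. This was Creb3l1, a transcription factor known to activate type I collagen in mouse bone, with 7.49, 6.75, 6.10 and 5.30, against 6.76 and 6.96 in Ctrl MEF (trend -2.16 ± 0.29, limma adjusted p = 0.000664). The collagen chaperone Serpinh1 read 11.16, 10.92, 10.88 and 10.44 in TO MEF, against 10.52 and 10.47 in Ctrl MEF, and did not pass (-0.69 ± 0.40, adjusted p = 0.315). The prolyl hydroxylase subunits P4ha1 and P4ha2 and the lysyl hydroxylase Plod2 had trends of -0.31, -0.55 and 0.05 and did not pass.

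Of 8 measured genes of procollagen cleavage and crosslinking, 0 rose and 2 fell in TO MEF. Lox, the main crosslinking enzyme of collagen and elastin, read 13.74, 13.83, 13.43 and 12.25, against 13.40 and 13.82 in Ctrl MEF (trend -1.60 ± 0.36, limma adjusted p = 0.0131). The other was Loxl4 (-1.23 ± 0.32), which was above background on 1 array. Of 7 collagen receptors 1 rose, the integrin Itga1, with 7.11, 7.68, 8.09 and 8.77, against 6.01 and 6.48 in Ctrl MEF (1.62 ± 0.47, limma adjusted p = 0.0424). Itga11, another collagen-binding integrin, and Ddr2, a collagen-binding kinase, had trends of -0.95 ± 0.49 and 0.20 ± 0.28 that did not pass. Of 9 genes of collagen breakdown and its inhibitors, 0 passed in TO MEF by limma, Mmp2 (-0.37 ± 0.32) and Timp1 (-0.88 ± 0.84) included.

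Of 11 basement membrane partners the laminin chain Lama2 rose (1.43 ± 0.38) and the proteoglycan perlecan, Hspg2, fell (-1.37 ± 0.30, limma adjusted p = 0.0111) in TO MEF. Sparc, which binds collagen, did not pass (-0.15 ± 0.35). Of 9 fibril-binding proteoglycans and matrix proteins, 3 fell and 1 rose. Elastin, Eln, read 10.98, 10.65, 9.92 and 8.32 in TO MEF, against 10.38 and 10.30 in Ctrl MEF (trend -2.75 ± 0.26, limma adjusted p = 7.73e-05). Tnc and Fmod also fell (-2.59 ± 0.75 and -1.66 ± 0.29), while decorin, Dcn, rose by 1.1 ± 0.25.

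In TO NSC, where 23.2% of all probes passed, the same lists held 3 of 18 folding genes that passed, Plod1 (1.70), Crtap (-2.02) and Colgalt1 (-1.18), and 3 of 8 cleavage genes, Pcolce2 (3.35), Bmp1 (1.26) and Pcolce (-1.72). Mmp14 (1.5) and Timp2 (2.10) of the breakdown list and Sparc (1.71) rose, and Lama1 (-1.1), Tnc (-4.80) and Eln (-0.80) fell. In TO BMC, where 0.785% of all probes passed, 1 gene of the 6 lists did, Itga1 (2.46 ± 0.47, limma adjusted p = 0.0254), which was below background at 0 and 6 h and read 7.12 and 7.21 at 12 and 24 h.

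Marker lists of other cell types moved as follows in TO MEF. The summed log2 level of 10 fibroblast markers was 110.96, 109.72, 107.96 and 107 at 0, 6, 12 and 24 h, against 110.27 and 111.5 in Ctrl MEF, and all 10 were detected on each array. Pdgfrb of that list fell and Dcn rose. Of 6 chondrocyte and osteoblast markers on the array, 2, 1, 1 and 0 were detected in TO MEF at 0, 6, 12 and 24 h, against 1 and 1 in Ctrl MEF, and Sox9 and Sp7 of them fell by 1.45 ± 0.42 and 1.97 ± 0.43. Of 7 blood and myeloid markers 1, Lyz2, was detected on each MEF array, and Ptprc, Mpo and Spi1 were below background there. Of 7 neural stem markers on the array 1 or 2 were detected on each MEF array, with a summed level of 40.11, 39.15, 37.46 and 34.78 in TO MEF, against 39.3 and 39.21 in Ctrl MEF. Slc1a3 of them read 9.06, 8.09, 6.04 and 5.38, the last below background, against 8.65 and 8.56 in Ctrl MEF, and fell by 3.81 ± 0.51. Nes read 8.31, 8.27, 8.12 and 6.5, against 7.9 and 8.19 in Ctrl MEF, and fell by 1.88 ± 0.36. Of 5 endothelial markers on the array 1 or 2 were detected on each MEF array, and Emcn fell by 1.25 ± 0.22. By the trend in TO MEF 0 of 8 pluripotent and 0 of 6 primitive endoderm markers passed, and 1 and 2 of them were detected on each TO MEF array. The step between 0 h and later times was passed in TO MEF by 1 of the 8 pluripotent markers, as higher. That list includes Pou5f1, which encodes the controlled Oct4 itself. The count therefore does not show that another pluripotent marker rose. As lower, the step was passed by 1 of 10 fibroblast markers and 1 of 3 chondrocyte and osteoblast markers detected on any array. Of all probes 0.199% passed it. The part of these markers in the collagen trends was not tested.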

How the data were processed

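Total RNA was measured on Illumina BeadArrays, 17 arrays for 17 conditions. The submitters' processing notes name BeadStudio 3.2, RMA and lumi. The authors deposited raw probe intensity values with a detection p-value per probe, and log2 values with a median of 3.77 on each array, which served as an alternative. From the intensities, limma 3.58.1 (R 4.3.3) corrected the background (neqc, offset 16) and quantile-normalized the arrays. Of 25697 probes, 15543 entered the models because 1 or more arrays gave them a detection p below 0.01. Models were fitted over all kept probes with lmFit and eBayes. The step and trend fits used 16 arrays with an intercept for each of 5 lines, and the level fit 3 MEF and 3 NSC arrays. All p-values were Benjamini-Hochberg adjusted over all of them at a threshold of 0.05. A bound ("at least") sets a level against the higher of the dim probe's own signal and the array's lowest detected signal (log2 5.38 to 5.69). The probe with the highest mean speaks for a gene. Members past the threshold, those with the 3 largest changes at 24 h in a line and a fixed set of common collagens are given in full, and genes of 6 pathway lists are named where they passed or belong to a fixed set. The members and lists were chosen with earlier results of these data known. Each condition has 1 array, so p-values measure the spread between times or lines, which may be technical, and the number of arrays limits precision. The fitting was also run on simulated data with independent noise. That run cannot show whether the spread taken from times and wild-type arrays is right for 1 array per condition. Alternatives were the authors' log2 values, an offset of 50, no background correction, no detection filter or one of 4 arrays, scaling to 1 median, robust moderation, subtraction of the wild-type trend, the level on 0 h arrays only, and leaving out each array.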

Additional observations from a re-analysis of the deposited data

Results flagged for a closer look

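The trend over 24 h differed between cell types, by a test of the difference itself (limma, adjusted p under 0.05 over all probes), for 15 pairs of a collagen probe and a contrast. Between MEF and NSC the difference was -3.15 for Col9a2, -2.81 for Col15a1, -2.48 for Col7a1, -2.15 for Col5a3, -1.98 for the dimmer Col24a1 probe, -1.89 for Col4a2, 1.39 for Col11a1 and 2.04 for Col23a1. Between MEF and BMC it was -3.12 for Col15a1, -2.64 for Col7a1, -1.41 for the dimmer Col24a1 probe, 1.66 for Col4a5 and 2.53 for Col23a1. Between NSC and BMC it was -1.14 for Col16a1 and 2.97 for Col9a2. Col5a3, Col11a1, Col15a1, Col23a1 and Col24a1 were at or near background in NSC and BMC. Col4a5 was below background on all TO BMC arrays, and Col9a2 on all MEF and TO BMC arrays, where a fall could not have been read. The Col11a1 probe was above background on TO MEF at 24 h alone and entered the test through that array. Col7a1 was below background on all TO BMC arrays and near it in NSC, where a fall like that in MEF could not have been read. The Col9a2 values rest on TO NSC at 24 h, without which its NSC trend was -0.57. No group has enough arrays for a test of single arrays that stand apart.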

How the results depend on the processing

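No paired analysis was possible because each condition has 1 array and all labels give replicate 1. Of 1047 alternative values for 52 single-gene results, 901 kept direction and side of the threshold, 132 were no longer past it, 12 were newly past it and 2 reversed. Those were the trend of Col5a2 in MEF (-1.02 without TO MEF at 0 h, 0.04 without TO MEF at 24 h) and that of Col9a2 in NSC (3.53 without TO NSC at 0 h, -0.57 without TO NSC at 24 h). On the authors' log2 values the trend differed for 5 collagen probes between MEF and NSC, 1 between MEF and BMC and 0 between NSC and BMC, and 2-fold changes at 24 h numbered 10 in TO NSC, 3 in TO BMC, 5 in Ctrl MEF and 6 in Ctrl NSC. With an offset of 50 these were 2 in TO NSC and 0 in Ctrl MEF, and without background correction 8 in TO MEF, 2 in TO NSC and 0 in Ctrl MEF. Scaling to 1 median gave 2 in Ctrl MEF, and without a detection filter 1 trend differed between NSC and BMC. With the wild-type trend subtracted 1 probe passed in MEF and 0 in NSC. Leaving out 1 array at a time gave 1 to 14 probes for the trend in MEF, 2 to 4 in NSC and 0 to 0 in BMC, 0 to 4, 0 to 2 and 0 to 0 for the step in MEF, NSC and BMC, 1 to 9, 0 to 6 and 0 to 2 for the differences MEF against NSC, MEF against BMC and NSC against BMC, and 23 to 25 for the level. With the 0 h arrays alone 19 probes passed for the level. The cause was not tested. The step could not be fitted for a cell type without its TO array at 0 h. Genes near background, such as Col11a1, Col5a3 and Col24a1, are limited by signal over background.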
